A study of Schmidtea mediterranea with 89 samples.

Results

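A group of 44 planarian transcripts was defined by a low point after 1 day of flat culture. In experiment 3 of the study, CPM (counts scaled to the same library total) were averaged over the uncultured cells (m0), the flat plate at 1 day (m1) and the flat plate at 3 days (m3), after removal of 4 very abundant identifiers. L1 is log2((m1 + 1)/(m0 + 1)), and L3 is log2((m3 + 1)/(m0 + 1)). Members had m0 of at least 5 CPM, L1 of at most -0.8 and L3 - L1 of at least 0.8. Of the 36035 identifiers in the table, 12104 met the first threshold, 2715 of these met the second, and 44 met all 3. The rule would have kept the 150 identifiers with the highest L3 - L1, so that cap was not reached. The members were thus chosen by the levels in those 3 groups, and every contrast with one of these groups is given as a description without a test.

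RNA of wild-type (WT) Schmidtea mediterranea cells called SiRNeoblasts was read in 89 libraries of 5 experiments. Experiment 3 holds uncultured cells, flat plates at 1, 2 and 3 days, U-bottom plates at 1 and 3 days, and cells on soft polyacrylamide (PA) with a stiffness of 100 Pa at 1, 2 and 3 days. Experiment 4 holds uncultured cells and cells kept 1 or 3 days on a flat plate, on feeder layers of HFF1, an established line of human foreskin fibroblasts, or of MEF, mouse embryonic fibroblasts, and experiment 5 holds uncultured cells and cells kept 1, 3 or 7 days on a flat plate, in a U-bottom plate or in a U-bottom plate with planarian extract. In experiment 2 AggreWell and flat plates were compared at 1 day, and in experiment 1 cells in aggregates and non-aggregating cells from flat culture at 2 days. Every group had 3 libraries, except for the PA gel at 3 days with 2. All cultures shared a serum-containing medium at 22 degrees. The labels do not state that libraries of one group stem from different cultures or animals. Their p-values therefore measure spread between libraries only, and that spread may be technical. The share of feeder-cell RNA in the libraries of experiment 4 was not tested.

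Neoblasts are the dividing stem cells of the adult flatworm. They replace its tissues in normal life and in regeneration, and the population holds pluripotent cells beside cells already specialised towards one tissue. Outside the animal they lose the signals of the surrounding tissue, and keeping them alive and undifferentiated in culture is a long-standing difficulty of the field. In bulk samples such as these, fewer cells of a type and less RNA per cell cannot be told apart. The deposited tables carry identifiers that begin with SMED3 and no gene names, and none of the neoblast or tissue marker names matched an identifier, so neither the cell type nor the function of a member could be checked.

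Totals per library were 12386601 to 25588459 counts in experiment 3, 6775383 to 42691160 counts in experiment 4 and 3333661 to 30686937 counts in experiment 5. The 4 removed identifiers took 54.6% to 84.6% of these counts in experiment 3. Their share was 27.0% to 58.9% in experiment 4, and in experiment 5 it was 38.8% to 71.1%. The labels mention no molecular identifiers, and any limit drawn from a count thus covers counting error only. Levels are compared within an experiment, since the tables were made separately.

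Most members had low levels, and their group means came back part of the way. In uncultured cells their mean lay between 5.07 and 199 CPM with a median of 9.77 CPM, and 24 of the 44 were under 10 CPM. At 1 day on the flat plate the median was 2.07 CPM (range 0 to 19.2), at 2 days 3.78 CPM (range 0 to 34.5) and at 3 days 5.86 CPM (range 0.781 to 40.2). The median L1 was -1.64 and the median L3 was -0.69, which left 36 of 44 members below the uncultured mean at 3 days and 8 at or above it. Members regained a median of 42.7% of the CPM that separated uncultured cells from day 1, and 25 of 44 regained under 50%. For 16 members L3 was still below -1. The word recovery therefore describes group means only, with 8 back at the uncultured mean or above and the other 36 part of the way. For 19 of the 44 every 3-day library lay above every 1-day library, and for the rest the libraries overlapped.

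**Figure D1:**
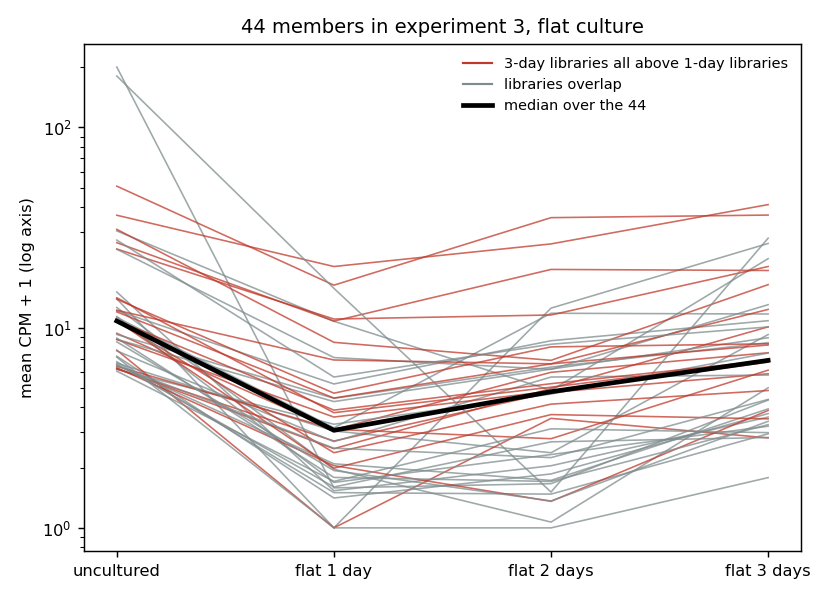
Mean CPM + 1 on a log axis for each of the 44 members in experiment 3, in uncultured cells and after 1, 2 and 3 days on a flat plate (n = 3 libraries a group), with the median in black. Red lines are the 19 members whose 3-day libraries all lay above their 1-day libraries, and the median runs from 9.77 CPM through 2.07 and 3.78 to 5.86 CPM.

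The first step was more regular across libraries than the second. For 42 of the 44 members every 1-day library lay below every uncultured library, a state found for 33.8% of the 12104 eligible identifiers. For 19 of 44 every 3-day library lay above every 1-day library, against 7.29% of the eligible identifiers. Both counts follow from the rule and are given as a description. The 2-day mean, which the rule did not use, lay between the 1-day and the 3-day mean for 24 of 44 members. At the edge of the rule, the 3 members with the lowest L3 - L1 had 0.816, 0.809 and 0.808, and the nearest identifiers outside had 0.796, 0.793 and 0.774. A further 22 identifiers lay between 0.7 and 0.8, and 194 had L3 - L1 of at least 0.8 whatever their L1.

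The extremes of the group show what the rule picked up. SMED30010418 had the highest L3 - L1, 4.72. Its uncultured libraries held 12.8, 16.8 and 9.18 CPM, its 1-day libraries at most 0.00311 CPM, and its 3-day libraries 2.77e-05, 0.000155 and 76.0 CPM. The day-3 mean thus rested on 1 library. In the PA gel at 1 day the same identifier read 29.7, 28.7 and 0.0704 CPM, so libraries of one group were either high or near 0. Values above 0 but under 0.001 CPM occurred in 7 libraries for this member, in 5 for SMED30009279 and in 1 for SMED30007075, and in any library for 0.388% of identifiers with a mean of at least 1 CPM in the experiment. Estimated counts of that size can arise where reads are shared among similar transcripts, which was not tested, so these 3 members are uncertain.

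SMED30014196 had the next highest L3 - L1, 2.02. It read 7.22, 4.52 and 4.01 CPM in uncultured cells, 0.408, 2.45 and 1.60 CPM at 1 day, 4.02, 5.27 and 2.61 CPM at 2 days, and 8.87, 6.31 and 12.1 CPM at 3 days. Its 1-day libraries were all below the uncultured ones, and its 3-day libraries were all above the 1-day ones. SMED30002634 and SMED30021196 were the members with the highest uncultured means. SMED30002634 read 168, 181 and 249 CPM in uncultured cells, 0, 1.64 and 0.112 CPM at 1 day, and 9.25, 0.565 and 0.229 CPM at 3 days. It regained only 1.39% of its loss, and its 3-day and 1-day libraries overlapped. SMED30021196 read 208, 132 and 199 CPM in uncultured cells, then 5.57, 9.60 and 29.0 CPM at 1 day, 0.441, 0.870 and 0.217 CPM at 2 days, and 4.26, 35.0 and 41.7 CPM at 3 days. Its lowest level was at 2 days, not at 1 day, and again the 3-day and 1-day libraries overlapped.

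Single libraries weighed on the membership itself. For 4 members 1 of the 3 libraries at 3 days held over 90% of their summed CPM. When each of the 9 libraries behind the rule was left out in turn, 7 members stayed in all 9 lists and the median member stayed in 8. The list grew to 90 identifiers without flat replicate 1 at 1 day, to 78 without flat replicate 2 at 3 days and to 73 without flat replicate 3 at 3 days. With a pseudocount of 5 in place of 1 it held 4 identifiers, and with CPM scaled by TMM (trimmed mean of M values) 8, all of them members.

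The other cultures of experiment 3 did not show the same course. The mean member level, the average of log2(CPM + 1) over the 44 members, was 3.63 ± 0.11 (SD, n = 3) in uncultured libraries. On flat plates it was 1.65 ± 0.03 at 1 day, 1.92 ± 0.11 at 2 days and 2.59 ± 0.22 at 3 days. In U-bottom plates it was 2.06 ± 0.10 at 1 day and 1.92 ± 0.37 at 3 days. On the PA gel it was 2.13 ± 0.23, 2.32 ± 0.12 and 2.26 ± 0.08 at 1, 2 and 3 days, the last with n = 2. All cultured libraries were below all uncultured ones, and outside the flat plate the 1-day and 3-day libraries overlapped. The 12104 eligible identifiers stayed between 4.50 and 4.90 on the same scale in every group.

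**Figure D2:**
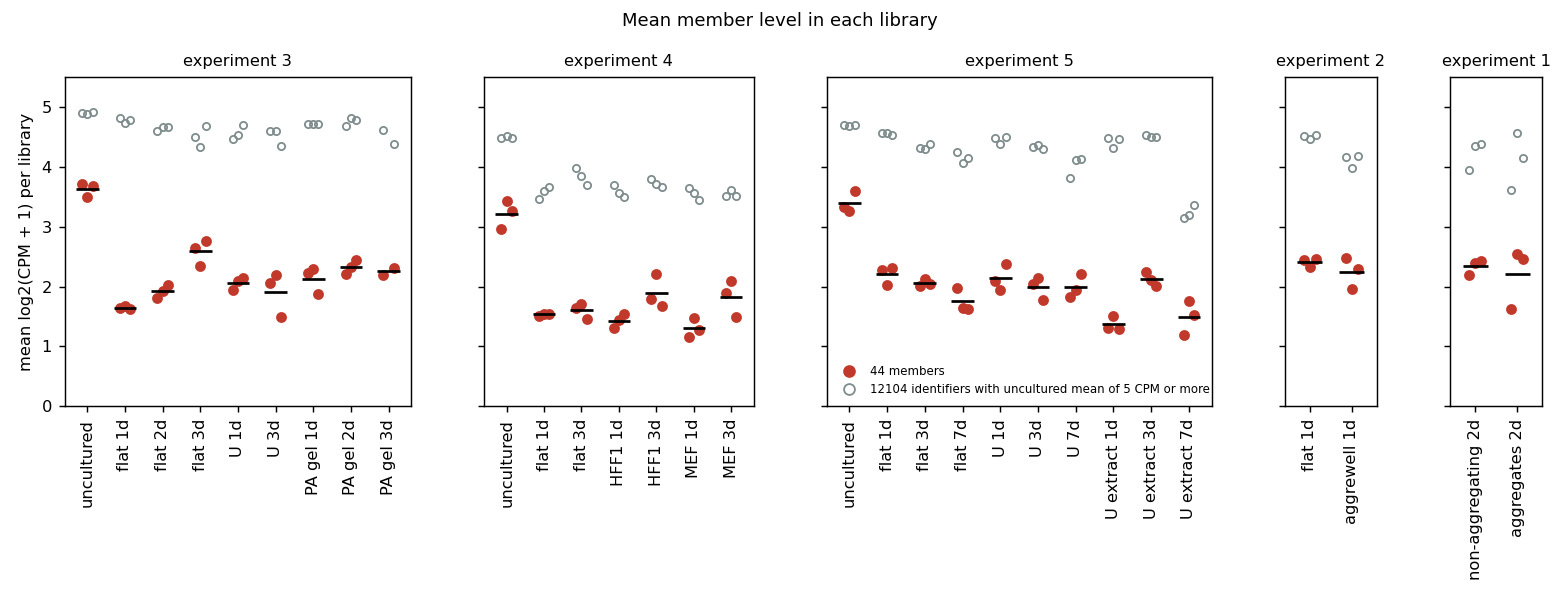
Mean log2(CPM + 1) in each library, for the 44 members (red, black bar for the group mean) and for the 12104 eligible identifiers (open circles), by group in each experiment. In experiments 3, 4 and 5 the members' uncultured libraries lie above every cultured one, and the 3-day return stands out on the flat plate of experiment 3 and with extract in experiment 5.

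Contrasts between later and earlier days in U-bottom plates and on the gel compared none of the libraries behind the rule. The quasi-likelihood test of edgeR with Benjamini-Hochberg adjustment over all 20949 identifiers was applied to them. It was fitted on all groups of experiment 3, however, so the libraries behind the rule entered its low-count filter and its estimates of spread. The tests are thus not fully independent of the choice of members. All 44 members passed the low-count filter, which does not show that each was detected in the compared groups. SMED30014375, looked up after its values were seen, read 0 CPM in all U-bottom libraries at 1 and 3 days. From 1 to 3 days in U-bottom plates no member was called higher by edgeR, against 1.77% of all identifiers tested. At an unadjusted p under 0.05 there were 12 members in either direction (18.5% of all), and DESeq2 called 2 higher (2.94% of all) and 1 lower (3.95% of all). The median difference of the 44, as log2 of the ratio of (mean CPM + 1), was 0.13, with 23 members higher and 20 lower. Without U-bottom replicate 1 at 3 days edgeR called 3 higher and 4 lower, without replicate 2 it called 2 higher and 0 lower, and without replicate 3 it called 2 higher and 1 lower. Without U-bottom replicate 3 at 1 day it called 1 lower. On the gel 0 members were called higher at 2 days against 1 day by edgeR (0.0573% of all), while 2 members had an unadjusted p under 0.05 (6.28% of all) and DESeq2 called 0 (0.239% of all). At 3 days against 1 day the gel again gave 0 members called higher by edgeR (0.286% of all), while 4 members had an unadjusted p under 0.05 (9.78% of all) and DESeq2 called 0 (0.897% of all). The median differences on the gel were 0.15 at 2 days and 0.12 at 3 days, against 0.05 and -0.16 for the eligible identifiers and 0.00 and -0.39 for the 2671 that met only the first 2 thresholds. At 3 days 9 members lay above all 1-day libraries and 6 below them (10.1% and 26.9% of the eligible identifiers). Gel against U-bottom plates gave 0 members by edgeR at 1 day (0.148% of all called in either direction) and 0 at 3 days (1.15% of all). Here 4 and 6 members had an unadjusted p under 0.05 (8.06% and 14.6% of all), and DESeq2 called 0 at both days (0.377% and 1.64% of all called higher, 0.325% and 1.79% lower). Without U-bottom replicate 1 at 3 days the last count was 2.

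Experiment 5 repeated uncultured and flat conditions and added planarian extract, and none of its libraries had chosen the members. Of the 44, 40 passed the low-count filter, and 32 had an uncultured mean of at least 5 CPM in this table. The mean member level was 3.40 ± 0.17 (SD, n = 3) in uncultured cells. At 1 day it was 2.20 ± 0.15 on flat plates, 2.14 ± 0.21 in U-bottom plates and 1.37 ± 0.12 with extract. All 9 one-day libraries lay below the 3 uncultured libraries, and the 3 with extract lay below the 6 without it. Their totals were 13258071 to 23661587 counts with extract and 3333661 to 25297349 counts without it, and the part of depth in this difference was not tested.

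On flat plates at 1 day 39 of the 44 members (88.6%) had a lower mean than in uncultured cells, against 49.7% of the eligible identifiers. The median difference was -0.77 against 0.00 for the eligible identifiers. The 2671 identifiers that met the first 2 thresholds of the rule but not the third had a median of -0.96 there. Of those 2671, 93.1% had a lower mean, so this fall was not particular to the members. No single member reached the threshold by edgeR, which called 0 of 40 lower (0.281% of all 24174 tested). By the same test 6 had an unadjusted p under 0.05 (10.8% of all), and DESeq2 called 2 lower (1.75% of all). For 20 of 44 members the 1-day libraries lay below all uncultured libraries, against 19.8% of the eligible identifiers. In U-bottom plates the median difference was -1.01 against -0.05, with 21 of 44 members below without overlap (18.9% of the eligible). There edgeR called 0 lower (0.269% of all), 7 had an unadjusted p under 0.05 (10.4% of all), and DESeq2 called 3 lower (1.54% of all).

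With extract the members were lower still at 1 day. The median difference from uncultured cells was -1.94, against -0.11 for the eligible identifiers and -1.47 for the 2671 that met the first 2 thresholds, and 30 of 44 members lay below without overlap (29.3% of the eligible). By edgeR 5 of 40 members fell (2.46% of all tested called lower) and 0 rose, 17 had an unadjusted p under 0.05 (20.4% of all), and DESeq2 called 11 lower (5.56% of all). These 3 contrasts share the uncultured libraries of the experiment.

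SMED30005198 and SMED30034545 were the 2 that the naming rule picked among the 5. SMED30005198 read 22.5, 43.0 and 54.1 CPM in uncultured cells and 5.26, 3.09 and 5.53 CPM after 1 day with extract. The groups did not overlap, and it fell by 3.16 on the log2 scale (SE 0.63, edgeR adjusted p = 0.000835). SMED30034545 read 38.9, 47.3 and 50.7 CPM in uncultured cells and 6.47, 4.89 and 11.7 CPM at 1 day with extract, and fell by 2.62 (SE 0.60, edgeR adjusted p = 0.00417). A further 2 of the 5 were at 0 in all 3 libraries with extract at 1 day. They averaged 13.9 and 14.4 CPM in uncultured cells, at least 145-fold and at least 150-fold higher than the floor of 3 counts over the 3 libraries with extract.

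From 1 to 3 days the mean member level went from 1.37 ± 0.12 to 2.12 ± 0.12 with extract, without overlap of the libraries. It went from 2.20 ± 0.15 to 2.06 ± 0.06 on flat plates, and from 2.14 ± 0.21 to 1.99 ± 0.20 in U-bottom plates, with overlap in both. The same eligible identifiers went from 4.43 to 4.51 with extract. With extract 33 of 44 members had a higher mean at 3 days, a share of 75.0%, against 53.0% of the eligible identifiers and 52.5% of the 2671. The median difference was 0.52, against 0.04 in both of those sets. For 10 members the 3-day libraries lay above all 1-day libraries (9.60% of the eligible), and for 0 they lay below (8.39%).

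Member by member this return did not reach the threshold by edgeR. From 1 to 3 days with extract edgeR called 0 of 40 members higher (0.0579% of all), 8 had an unadjusted p under 0.05 (7.94% of all), and DESeq2 called 4 higher (0.567% of all). On flat plates edgeR called 0 higher (0.223% of all), 4 had an unadjusted p under 0.05 (12.7% of all), and DESeq2 called 0 higher (1.84% of all) and 2 lower (1.40% of all). In U-bottom plates edgeR called 0 higher (0.376% of all), 1 had an unadjusted p under 0.05 (12.3% of all), and DESeq2 called 0 higher (1.87% of all) and 0 lower (1.09% of all). The change from 1 to 3 days differed between extract and plain U-bottom plates for 0 members by edgeR (0.0207% of all called in either direction), while 6 had an unadjusted p under 0.05 (9.36% of all) and DESeq2 called 0 (0.629% of all called higher and 0.546% lower). Between plain U-bottom and flat plates that change differed for 0 members by edgeR (0.00414% of all), while 2 had an unadjusted p under 0.05 (8.34% of all) and DESeq2 called 1 higher (0.621% of all).

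One contrast combines the fall and the return, as the mean of uncultured cells and day 3 minus day 1 on the log2 scale. A fall without a return also puts it above 0, so a call in it does not show a return. In experiment 4 on flat plates the members' median fitted value was 0.96 for this contrast and -0.15 for day 3 against day 1. The counts for experiment 5 follow. With extract 3 of 40 members were called higher by edgeR (0.347% of all), 11 had an unadjusted p under 0.05 (13.2% of all), and DESeq2 called 9 higher (1.82% of all). On flat plates there were 0 by edgeR (0.0165% of all), 4 with an unadjusted p under 0.05 (8.62% of all), and by DESeq2 0 higher (0.724% of all) and 1 lower (0.459% of all). U-bottom plates gave 0 by edgeR (0.0165% of all), 3 with an unadjusted p under 0.05 (8.18% of all) and 0 by DESeq2 (0.625% of all called higher). Without extract replicate 2 at 1 day the count with extract was 0, and without extract replicate 3 at 1 day it was 1.

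SMED30005198 followed the course of the rule in experiment 5 with extract as well. In experiment 3 it read 56.2, 49.3 and 44.2 CPM in uncultured cells, 12.3, 13.2 and 20.4 CPM at 1 day on flat plates, 28.6, 41.1 and 33.6 CPM at 2 days and 34.9, 37.9 and 33.7 CPM at 3 days. In experiment 5 with extract the 1-day values given above were followed by 24.0, 27.7 and 16.0 CPM at 3 days and 12.9, 16.7 and 21.3 CPM at 7 days. All later libraries lay above all 1-day libraries. The combined contrast was 2.68 (SE 0.58, edgeR adjusted p = 0.0102), while day 3 against day 1 alone was 2.20 (SE 0.60) at an edgeR adjusted p of 0.249. Day 7 against day 1 was 2.83 (SE 0.62, edgeR adjusted p = 0.00108). In plain U-bottom plates the same member read 16.0, 5.70 and 7.23 CPM at 1 day, 10.8, 10.4 and 15.6 CPM at 3 days and 25.4, 23.4 and 18.6 CPM at 7 days, and the 7-day libraries lay above all 1-day libraries at an edgeR adjusted p of 0.0787. In experiment 4 its libraries scattered within groups, from 0.351 to 73.4 CPM on MEF at 1 day, and no contrast of it was called by edgeR.

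**Figure D3:**
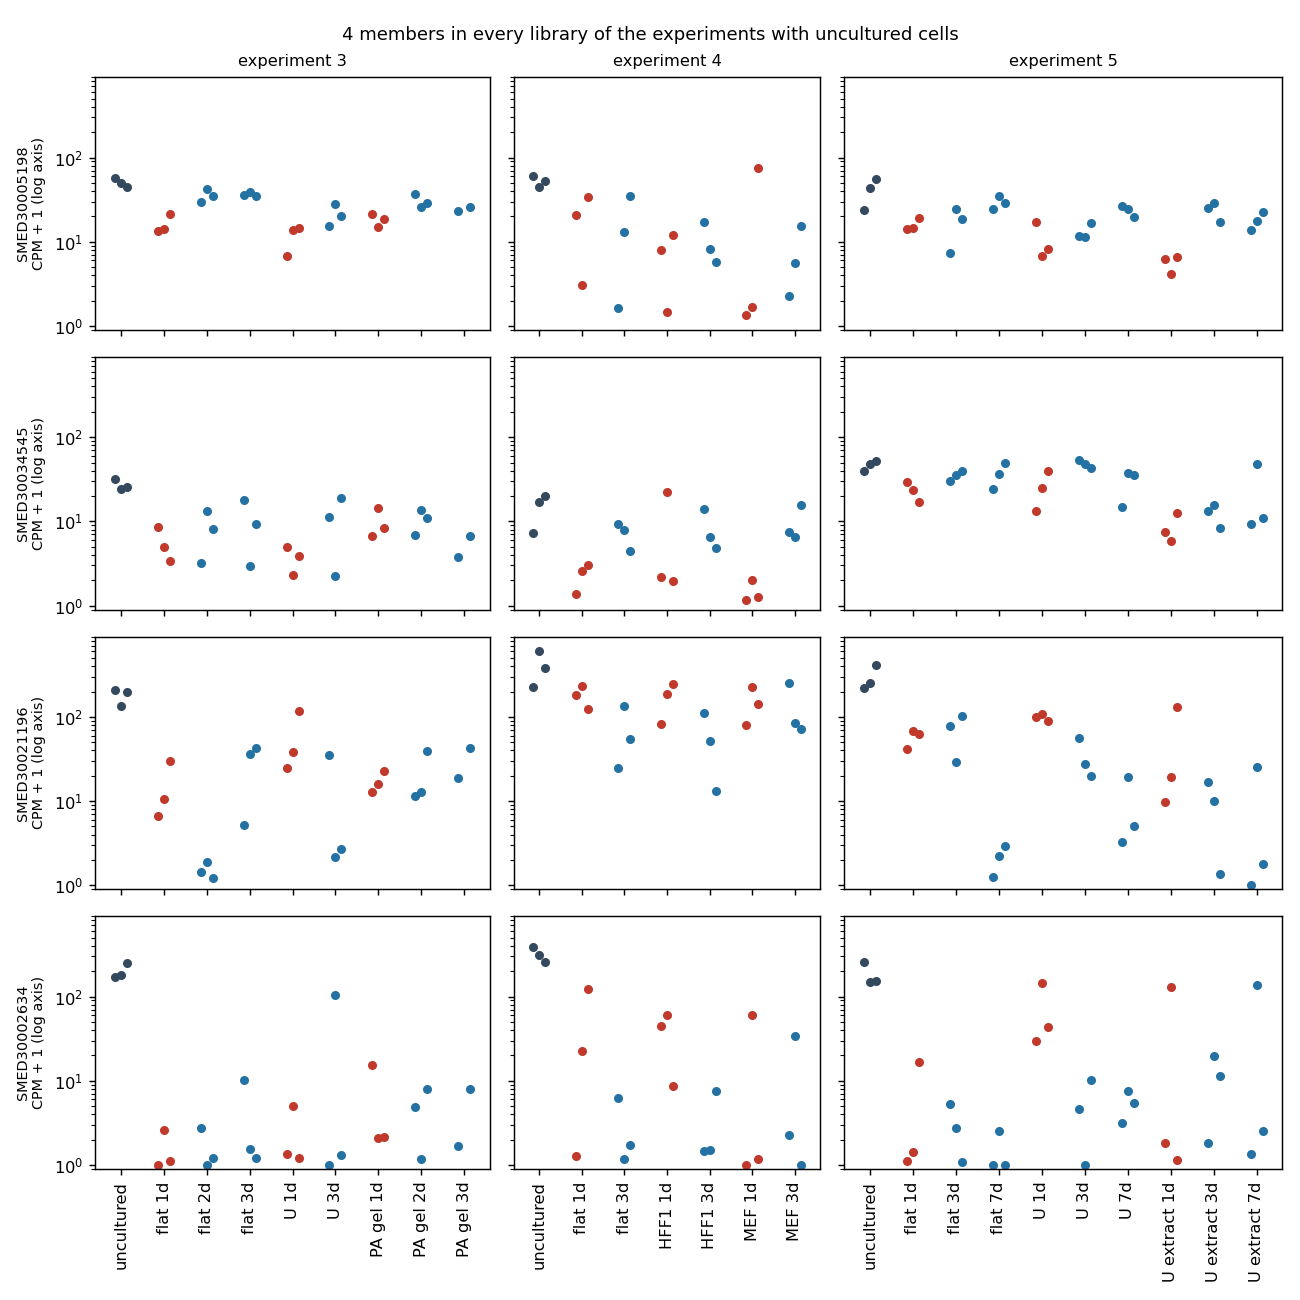
CPM + 1 on a log axis in every library of experiments 3, 4 and 5 for SMED30005198, SMED30034545, SMED30021196 and SMED30002634, with uncultured cells in dark grey, 1-day cultures in red and later days in blue. SMED30005198 is lower at 1 day than later in all cultures of experiment 3 and with extract in experiment 5. On flat and plain U-bottom plates of experiment 5 its 1-day and 3-day libraries overlap. For SMED30002634 every cultured library lies below the uncultured ones of its experiment. For SMED30021196 the same holds in experiments 3 and 5.

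The mean member level at 7 days was 1.75 ± 0.20 on flat plates, 1.99 ± 0.20 in U-bottom plates and 1.49 ± 0.29 with extract, all below every uncultured library. Over the same time the eligible identifiers went down to 4.16, 4.02 and 3.23, against 4.70 in uncultured cells. From 1 to 7 days with extract 5 of 40 members rose and 1 fell by edgeR (9.62% of all tested called higher and 10.5% lower), 14 had an unadjusted p under 0.05 (37.4% of all), and DESeq2 called 13 higher (20.1% of all) and 1 lower (7.19% of all). The edgeR counts of 5 and 1 of 40 lie near and below those shares over all identifiers. Fitting only the compared groups left 0 higher calls, and without extract replicate 3 at 1 day there were 3. SMED30017070, beside SMED30005198 the one named by rule, read 0.270, 13.2 and 1.31 CPM at 1 day and 35.7, 17.6 and 18.8 CPM at 7 days, without overlap, and rose by 3.16 on the log2 scale (SE 1.15, edgeR adjusted p = 0.0481). On flat plates 0 members were called higher at 7 days (4.90% of all), and 1 was called lower (1.60% of all), while in U-bottom plates 0 members were called higher (5.97% of all) or lower (2.16% of all) by edgeR. At an unadjusted p under 0.05 these plates gave 4 and 7 members (23.0% and 26.5% of all). DESeq2 called 1 higher in each (9.82% and 12.5% of all), with 3 lower on flat plates (3.08% of all) and 0 lower in U-bottom plates (3.24% of all).

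The single member lower at 7 than at 1 day on flat plates was SMED30021196. It read 218, 253 and 417 CPM in uncultured cells, 40.3, 66.5 and 62.3 CPM at 1 day, 76.9, 28.4 and 102 CPM at 3 days and 0.256, 1.23 and 1.90 CPM at 7 days. All cultured libraries lay below the uncultured ones, and the 7-day libraries lay below the other flat ones. It fell by 5.41 from 1 to 7 days (SE 1.22, edgeR adjusted p = 0.00354) and by 7.87 from uncultured cells to 7 days (SE 1.34, edgeR adjusted p = 6.19e-05). Against uncultured cells 4 of 40 members were lower at 7 days on flat plates (3.79% of all called lower), 1 in U-bottom plates (4.32% of all) and 7 with extract (13.3% of all). DESeq2 called 6, 4 and 7 lower there (6.99%, 6.23% and 10.6% of all). Leaving out single libraries took these counts down to 1 without flat replicate 3 at 7 days and to 4 without extract replicate 1 at 7 days. At 3 days the counts were 1 on flat plates (1.46% of all), 1 in U-bottom plates (1.13% of all) and 2 with extract (3.21% of all), and DESeq2 called 5, 3 and 5 lower (5.20%, 4.12% and 6.23% of all). The single calls at 3 days were lost without any of the 3-day libraries of their plate, and those with extract came to 1 without extract replicate 1 or 3 at 3 days or uncultured replicate 2 or 3. SMED30034545 was one of those 2, at 12.3, 14.6 and 7.45 CPM with extract at 3 days, and fell by 2.13 (SE 0.59, edgeR adjusted p = 0.0188).

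Extract and plain U-bottom plates were also compared at each day. At 1 day 2 of 40 members were lower with extract (0.798% of all called lower) and 0 were higher (1.10% of all), with 11 at an unadjusted p under 0.05 (14.1% of all). At 3 days 1 was lower (1.83% of all) and 0 higher (1.03% of all), and at 7 days 2 were lower (5.07% of all) and 0 higher (0.939% of all). DESeq2 called 4, 2 and 4 lower (2.06%, 3.60% and 4.53% of all) and 1, 1 and 0 higher (3.04%, 4.02% and 5.15% of all). Without extract replicate 2 the count at 1 day was 0, without any of the 6 libraries the count at 3 days was 0, and without plain replicate 2 or 3 or extract replicate 1 the count at 7 days was 1. Over the 44 members the median difference, extract minus plain, was -0.49 at 1 day, 0.15 at 3 days and -0.31 at 7 days, against -0.01, 0.08 and -0.73 for the eligible identifiers and -0.53, -0.20 and -0.33 for the 2671. Plain U-bottom and flat plates differed for 0 members by edgeR at 1, 3 and 7 days (0.0%, 0.00827% and 0.0% of all called in either direction), with 4, 3 and 3 members at an unadjusted p under 0.05 (5.98%, 11.7% and 7.62% of all). DESeq2 called 0, 1 and 0 of the members between these plates (0.368%, 1.16% and 0.414% of all called higher).

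In experiment 4 members were again lower at 1 day. The mean member level was 3.22 ± 0.24 (SD, n = 3) in uncultured cells. On flat plates it was 1.54 ± 0.02 at 1 day and 1.61 ± 0.13 at 3 days, on HFF1 1.43 ± 0.12 and 1.89 ± 0.28, and on MEF 1.30 ± 0.17 and 1.83 ± 0.31. All cultured libraries lay below the uncultured ones. The 3-day libraries lay above the 1-day libraries on both feeders and overlapped them on flat plates. On MEF the lowest 3-day library was at 1.49 and the highest 1-day library at 1.48. Totals on MEF were 6775383 to 19777036 counts at 3 days and 16518405 to 18070258 counts at 1 day, and the part of depth was not tested. With log2(CPM + 5) the 1-day and 3-day libraries overlapped on both feeders as well, and the difference went from 0.46 to 0.14 on HFF1 and from 0.53 to 0.17 on MEF. On the first scale the eligible identifiers went from 3.59 to 3.72 on HFF1 and stayed at 3.55 on MEF.

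At 1 day the median difference from uncultured cells was -1.22 on flat plates, -1.54 on HFF1 and -1.98 on MEF, against -0.52, -0.57 and -0.57 for the eligible identifiers and -1.63, -1.69 and -1.74 for the 2671 that met the first 2 thresholds. By edgeR 4 of 42 members fell on flat plates (3.14% of all 26107 tested called lower), 7 on HFF1 (3.30% of all) and 5 on MEF (4.51% of all), and 0 rose. DESeq2 called 6, 9 and 13 lower (5.53%, 6.71% and 8.36% of all). The libraries did not overlap for 19, 25 and 29 of 44 members, against 33.7%, 36.8% and 36.5% of the eligible identifiers. Leaving out any 1 of the 6 compared libraries gave 0 to 2 calls on flat plates, 1 to 5 on HFF1 and 0 to 2 on MEF, with 0 on flat plates without any 1 of the 3 uncultured replicates, 1 on HFF1 without uncultured replicate 2, and 0 on MEF without MEF replicate 1 at 1 day or uncultured replicate 2 or 3. The scaling also moved the centre of this experiment, since the median log2 fold change of all identifiers on flat plates at 1 day was 0.30 with TMM, 0.61 with RLE scaling and 1.06 with the 4 most abundant identifiers left out. Relative to that centre the members' median was -1.96, -1.92 and -2.08 under these 3 scalings.

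SMED30035383 was the member named by rule on flat plates at 1 day. It read 35.5, 31.3 and 35.0 CPM in uncultured cells and 0.369, 0.696 and 0.798 CPM at 1 day, without overlap, and fell by 5.54 (SE 1.92, edgeR adjusted p = 0.046). The call was lost in 9 of 12 alternatives. In experiment 5 the same member read 22.5, 31.3 and 28.2 CPM in uncultured cells and 38.5, 10.7 and 22.3 CPM at 1 day on flat plates, with overlap.

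From 1 to 3 days no member was called higher by edgeR in any of the 3 cultures of experiment 4. On flat plates 0.0% of all identifiers were called higher, 10 members had an unadjusted p under 0.05 (8.16% of all), and DESeq2 called 1 higher (0.919% of all). On HFF1 0.00383% of all were called higher, 15 members had an unadjusted p under 0.05 (17.4% of all), and DESeq2 called 4 higher (5.02% of all). On MEF 0.709% of all were called higher, 10 members had an unadjusted p under 0.05 (32.3% of all), and DESeq2 called 10 higher (30.7% of all). The median level difference of the 44 members was 0.04 on flat plates, 0.42 on HFF1 and 0.62 on MEF, beside 0.17, 0.38 and 0.37 for the 2671 that met the first 2 thresholds. The libraries lay higher without overlap for 4, 12 and 11 members (7.77%, 16.5% and 14.4% of the eligible identifiers). In the fit the members' median on MEF was 1.03 and that of all identifiers 1.44, so relative to that centre the members were at -0.41 with TMM, -0.48 with RLE scaling and -0.51 without the 4 most abundant identifiers. That fit covers 42 members and all identifiers tested, and the level differences cover 44 members without TMM scaling, so the figures differ in several respects.

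The combined contrast called 1 member higher on HFF1 (0.0804% of all), 0 on flat plates (0.103% of all) and 0 on MEF (0.111% of all) by edgeR. At an unadjusted p under 0.05 there were 13, 11 and 12 members (19.2%, 22.5% and 22.7% of all), and DESeq2 called 6, 4 and 9 higher (4.37%, 3.02% and 10.1% of all) and 0, 1 and 0 lower (1.93%, 7.32% and 1.91% of all). The 1 member on HFF1, looked up after its value was seen, was SMED30000119. It read 2.92, 9.82 and 3.86 CPM in uncultured cells, 0 in all 3 libraries at 1 day and 1.46, 13.8 and 1.41 CPM at 3 days. Leaving out any library of the compared groups removed this call. HFF1 and MEF feeders differed from flat plates for 0 members by edgeR at 1 day (0.0% of all in both) and at 3 days (0.00383% and 0.0% of all called in either direction). At an unadjusted p under 0.05 these gave 13 and 13 members at 1 day and 6 and 7 at 3 days (9.95% and 13.8%, then 6.07% and 8.67% of all), and DESeq2 called 4 and 5 at 1 day (1.15% and 1.42% of all called higher, 1.95% and 2.93% lower) and 0 and 1 at 3 days (0.341% and 1.11% of all called higher). The change from 1 to 3 days differed from that on flat plates for 0 members by edgeR on HFF1 and on MEF (0.0% of all in both), while 11 and 7 had an unadjusted p under 0.05 (9.84% and 17.5% of all). DESeq2 called 2 higher and 2 lower on HFF1 (1.15% and 0.663% of all), and 5 higher and 2 lower on MEF (7.88% and 1.33% of all). These 2 comparisons were added after the data were seen.

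SMED30033970 had another course outside experiment 3. It read 27.2, 14.8 and 28.9 CPM in uncultured cells of experiment 3 and 11.3, 2.92 and 4.05 CPM at 1 day on flat plates. In experiment 4 it read 116, 53.9 and 62.2 CPM in uncultured cells, 26.4, 140 and 103 CPM at 1 day on flat plates, and 236, 397 and 192 CPM at 3 days. On HFF1 it read 300, 412 and 306 CPM at 3 days and on MEF 629, 149 and 420 CPM. In each culture all 3-day libraries lay above all uncultured libraries. It rose from uncultured cells to 3 days by 1.74 on flat plates (SE 0.59, edgeR adjusted p = 0.0432), by 1.82 on HFF1 (SE 0.59, edgeR adjusted p = 0.0255) and by 2.13 on MEF (SE 0.60, edgeR adjusted p = 0.00987), contrasts that share the uncultured libraries. The call was lost in 7, 6 and 3 of 12 alternatives, and among single libraries left out the flat call was lost without any of the 6, the HFF1 call without any but uncultured replicate 1, and the MEF call without MEF replicate 1 or 3 at 3 days. It was the 1 member called higher in each of these contrasts (13.7%, 20.0% and 22.9% of all called higher). In experiment 5 it was listed at 0 in all libraries of flat and plain U-bottom plates and at 6.53, 0.802 and 3.72 CPM in uncultured cells.

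SMED30002634 and SMED30021196 were lower than uncultured cells at 3 days in experiment 4. SMED30002634 read 385, 313 and 259 CPM in uncultured cells, 0.295, 21.4 and 121 CPM at 1 day on flat plates and 5.26, 0.190 and 0.718 CPM at 3 days. It fell by 7.39 at 3 days on flat plates (SE 2.18, edgeR adjusted p = 0.0232) and fell by 7.27 on HFF1 (SE 2.17, edgeR adjusted p = 0.0166). SMED30021196 read 223, 607 and 376 CPM in uncultured cells and 23.5, 134 and 53.7 CPM at 3 days on flat plates, and fell by 2.63 (SE 0.74, edgeR adjusted p = 0.0193). On HFF1 it read 110, 50.5 and 12.3 CPM and fell by 3.14 (SE 0.76, edgeR adjusted p = 0.00526). In all, 5 of 42 members were lower at 3 days on flat plates (2.11% of all called lower), 3 on HFF1 (3.82% of all) and 6 on MEF (5.38% of all), and DESeq2 called 8, 3 and 3 lower (3.67%, 3.82% and 4.15% of all). Leaving out any 1 of the compared libraries gave 0 to 3 lower calls on flat plates, 0 without uncultured replicate 2 or 3. It gave 1 to 4 on MEF, 1 without MEF replicate 1 at 3 days, and 2 to 4 on HFF1.

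Across the 8 cultures with 1-day and 3-day libraries that had not chosen the members, no member was called higher at 3 days by edgeR. The mean at 3 days was above the mean at 1 day in a median of 5 of these 8 cultures. It was above in 6 or more for 16 members and in 4 or fewer for 18. By culture 43.2% to 75.0% of the members had a higher mean at 3 days, against 34.4% to 56.7% of the eligible identifiers. For the 2671 that met only the first 2 thresholds the range was 20.9% to 63.3%. The number of cultures per identifier is not given for those sets, so the median of 5 has no value beside it. SMED30019060 was higher at 3 days in all 8 and SMED30007075 in 0, and both were looked up after their values were seen. SMED30019060 read 0.539, 2.77 and 0 CPM with extract at 1 day and 19.1, 16.2 and 28.5 CPM at 3 days, without overlap, at an edgeR adjusted p of 0.304. SMED30007075 was at most 1.46 CPM in every library of experiments 4 and 5. The 3-day libraries lay above all 1-day libraries in 2 or more of the 8 cultures for 17 members (21.6% of the eligible identifiers) and in none for 16 (50.0% of the eligible identifiers). Beside the shares of eligible identifiers given above, such separation was found for 8.26% on flat and 8.21% in U-bottom plates of experiment 5, and for 8.62% in U-bottom plates and 10.1% on the gel of experiment 3.

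**Figure D4:**
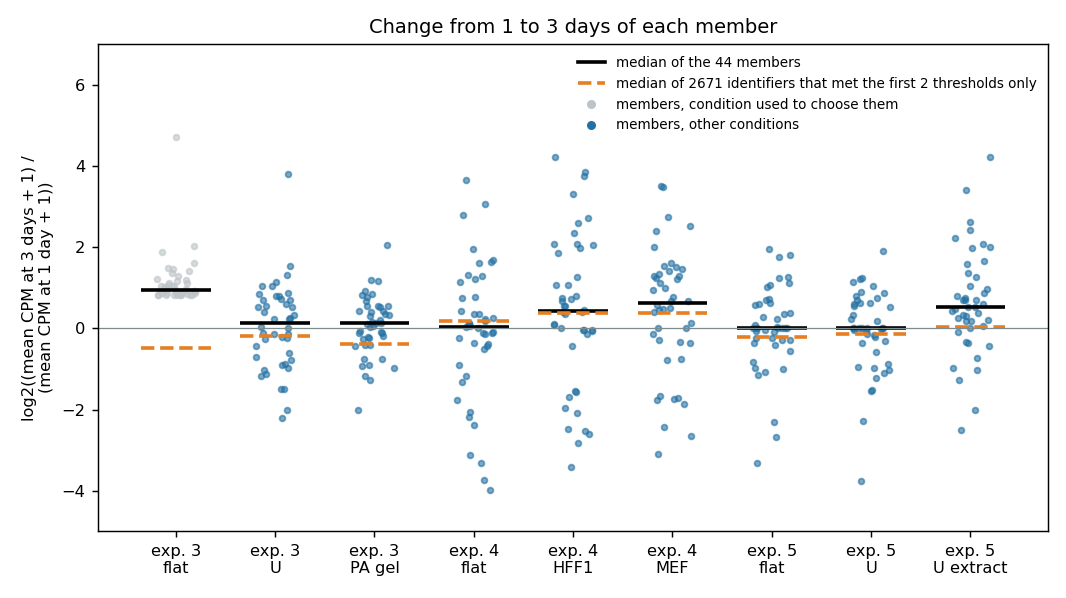
Log2 ratio of (mean CPM + 1) at 3 days to that at 1 day for each of the 44 members in 9 cultures, with the median of the members (black) and of the 2671 identifiers that met the first 2 thresholds of the rule only (orange, dashed). The grey points on the left chose the members, and the other medians run from 0.00 on flat and U-bottom plates of experiment 5 to 0.62 on MEF.

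Abundance and evenness of return in experiment 3 divided the members as follows, described without a test. The 24 members under 10 CPM in uncultured cells had a median L1 of -1.61 and regained a median of 42.7%, and the 20 more abundant ones had -1.81 and 44.5%. With extract their median differences from 1 to 3 days were 0.65 and 0.47. On MEF they were 0.73 and -0.21, so there the median above 0 lay with the less abundant members. The 19 members whose 3-day libraries had lain above all 1-day libraries on the flat plate of experiment 3 had a median of 0.86 from 1 to 3 days with extract, and the other 25 had 0.42. On the flat plates of experiments 4 and 5 the 19 had medians of -0.13 and -0.04, and the 25 had 0.13 and 0.0. The medians of the 19 and the 25 were 0.51 and 0.68 on MEF, 0.44 and 0.36 on HFF1, and 0.12 and 0.11 on the gel. In U-bottom plates they were 0.22 and 0.0 in experiment 3 and 0.56 and -0.02 in experiment 5. The direction of the split thus varied between cultures.

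**Figure D5:**
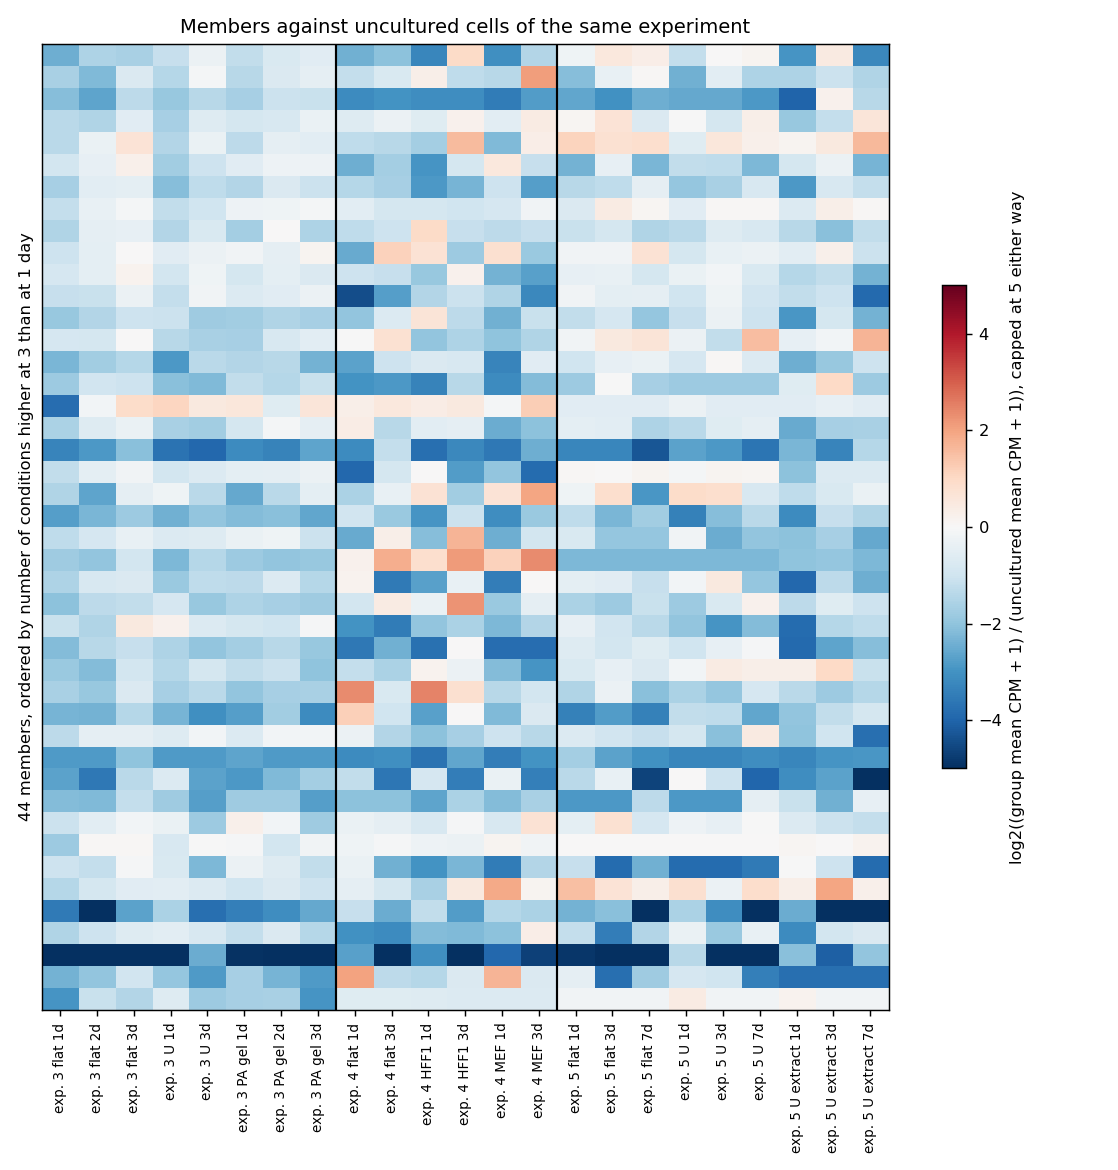
Log2 ratio of (group mean CPM + 1) to (uncultured mean CPM + 1) of the same experiment for each of the 44 members (rows) in every culture of experiments 3, 4 and 5 (columns), with blue below and red above uncultured cells. Rows are ordered by the number of 8 cultures in which the 3-day mean was above the 1-day mean, from 8 at the top to 0 at the bottom, and most cells are blue in all 3 experiments.

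Experiments 1 and 2 had no uncultured cells, so only differences between cultures could be read. Of the 44 members, 32 passed the filter in experiment 2 and 34 in experiment 1, and 25 passed in all 5 experiments. The mean member level was 2.25 ± 0.26 (SD, n = 3) in AggreWell plates and 2.41 ± 0.07 on flat plates at 1 day, with overlap. By edgeR 2 of 32 members were higher in AggreWell plates (11.8% of all 18266 tested called higher) and 0 were lower (9.15% of all), while 5 had an unadjusted p under 0.05 (36.9% of all) and DESeq2 called 4 higher (14.1% of all). With a replicate block edgeR called 0. SMED30009279 read 12.8, 19.6 and 27.7 CPM in AggreWell plates and 6.76, 5.18 and 12.3 CPM on flat plates, without overlap, and rose by 1.40 (SE 0.46, edgeR adjusted p = 0.0406). SMED30014196, looked up after its value was seen, read 19.6, 7.70 and 9.91 CPM against 2.86, 4.93 and 4.15 CPM, again without overlap, and rose by 1.67 (SE 0.52, edgeR adjusted p = 0.0322). Without AggreWell replicate 2, flat replicate 1 or flat replicate 2 the count was 0, without the third replicate of either plate it was 1, and without AggreWell replicate 1 it was 3, of which 1 was lower. SMED30009279 was at most 1.03 CPM in every library of experiments 4 and 5, so its levels could be followed only in the first 3 experiments.

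Aggregates and non-aggregating cells at 2 days gave no member past the threshold. The mean member level was 2.21 ± 0.51 (SD, n = 3) in aggregates and 2.34 ± 0.12 in non-aggregating cells, with overlap. By edgeR 0 of 34 members were called in either direction (0.0% of all 18241 tested), 0 had an unadjusted p under 0.05 (1.67% of all) and DESeq2 called 0 (0.011% of all called higher and 0.0% lower). The median difference, aggregates minus non-aggregating, was -0.12 over the 44 members and -0.03 over the eligible identifiers.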

How the data were processed

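RNA of 89 libraries in 5 separately made tables was analysed, and no test crosses tables. Per the submitters' processing notes kallisto 0.46.2 and R 4.0.5 were used, with no role given, and the sources used here do not give the transcriptome or its build. The authors deposited estimated counts for experiments 1 to 3, none of them whole above 0, which were rounded for the tests, and whole-number counts per identifier for experiments 4 and 5. CPM were computed from the deposited counts without the 4 identifiers named by the rule. Tests used edgeR 4.0.16 (quasi-likelihood, TMM scaling, low-count filter, Benjamini-Hochberg adjustment over all identifiers tested, threshold 0.05) in R 4.3.3 on all groups of a table, and DESeq2 1.42.0 as an alternative. The scripts were checked on simulated data with changes of 1 or 2 on the log2 scale. With extract (3 days against 1 day) edgeR recovered 4% and 28% of these. On flat plates of experiment 4 (3 days against 1 day) it recovered 0% of either size, and for aggregates 0% and 10%. The shares were 65% and 99% in U-bottom plates of experiment 3 (3 days against 1 day) and 9% and 81% for AggreWell. Recovery at the levels of the members, whose mean CPM in experiment 3 had a median of 4.77, was not tested. A lack of calls therefore does not show that members did not change. A total of 51 comparisons was tested, and 0 columns were left unmapped.

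Named members were the 2 with the highest L3 - L1, the 2 with the highest mean CPM in experiment 3, and for each comparison at most 2 called members in each direction with a mean of at least 10 CPM and no overlap. Other members named are marked as looked up after their values were seen, with 2 exceptions. Members with values just above 0 CPM, and those flagged for a closer look, were listed by the criteria given there, not by this rule. The members and lists were chosen with earlier results of these data known. Alternatives were other scalings and pseudocounts, no filter, a replicate block, fits of the compared groups only and leaving out each library.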

Additional observations from a re-analysis of the deposited data

Results flagged for a closer look

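Members whose level differed between U-bottom plates with and without planarian extract at the same day, by edgeR's test of that difference, were singled out. At 1 day SMED30012036 read 6.56, 3.42 and 9.14 CPM without extract and 0 in all 3 libraries with it, at least 66.5-fold lower (edgeR adjusted p = 0.00687). SMED30033998 read 15.3, 5.93 and 17.9 CPM without and 0 in all 3 libraries with extract, at least 136-fold lower (edgeR adjusted p = 0.0312). The fitted log2 fold changes, -8.60 and -9.63, depend on the prior count and are no bounds.

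At 3 days SMED30034545 read 52.4, 46.8 and 42.5 CPM without and 12.3, 14.6 and 7.45 CPM with extract, a log2 fold change of -2.12 (SE 0.59, edgeR adjusted p = 0.0397). At 7 days SMED30000014 read 42.0, 25.6 and 52.6 CPM without and 1.03, 1.60 and 0.933 CPM with extract, a log2 fold change of -4.49 (SE 1.14, edgeR adjusted p = 0.0121). SMED30019060 read 3.71, 17.4 and 28.8 CPM without and 0, 2.13 and 0 CPM with extract, a log2 fold change of -3.88 (SE 1.21, edgeR adjusted p = 0.0498). In none of the 5 cases did the libraries overlap. The calls were not all stable, however. The SMED30034545 call was kept in 5 alternatives and lost in 7, and leaving out any library of its comparison removed it. The SMED30000014 call was kept in 11 and lost in 1. Leaving out extract replicate 2 at 1 day removed the 1-day calls, and some single libraries took the 7-day count to 1.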

How the results depend on the processing

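The membership is the least stable result: in place of 44 members the rule gave 8 with TMM-scaled CPM, 4 with a pseudocount of 5, 20 with an uncultured mean of at least 10 CPM, and 43 to 90 when single libraries were left out. No called result changed sign. The members' median fitted log2 fold change did: without the 4 most abundant identifiers and with no filter it went from 0.22 to -0.05 and -0.59 on HFF1 (3 days against 1 day) and from 0.33 to -0.14 and -0.43 for MEF against flat at 3 days. With no filter it went from 0.20 to -0.09 for aggregates and from 0.42 to -0.04 for the change on HFF1 minus flat. Named members kept their call in 229 alternatives and lost it in 73. With log2(CPM + 5) the mean level difference from 1 to 3 days went from 0.46 to 0.14 on HFF1, from 0.53 to 0.17 on MEF and from 0.75 to 0.35 with extract. The cause was not tested. Low counts and 3 libraries a group limit the precision.

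Counts of members called that moved by over 1.5 times follow. For DESeq2 the shares of all identifiers called are given above. For the other settings, here and above, no such share is given. Those counts therefore show how the calls depend on the processing, and not whether members were called more often than other identifiers. DESeq2 gave, against uncultured cells in experiment 5, 2, 5 (flat, 1 and 3 days), 3, 3, 4 (U-bottom, 1, 3 and 7 days) and 11, 5 (extract, 1 and 3 days), and in experiment 4 8 (flat, 3 days), 13 and 3 (MEF, 1 and 3 days). It gave, for 3 days against 1 day, 1, 4 and 10 (flat, HFF1, MEF), 4 (extract) and 2 (U-bottom, experiment 3). For 7 days against 1 day it gave 1, 1 and 13 (flat, U-bottom, extract). The combined contrast gave 4, 6 and 9 (flat, HFF1, MEF) and 9 (extract), and the change from 1 to 3 days gave 4 and 7 (HFF1 and MEF against flat) and 1 (U-bottom against flat). Between cultures it gave 4, 5 and 1 (HFF1 and MEF at 1 day, MEF at 3 days), 5, 3 and 4 (extract at 1, 3 and 7 days), 1 (U-bottom against flat, 3 days) and 4 (AggreWell).

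With no low-count filter the counts against uncultured cells in experiment 5 were 3, 6 (flat, 1 and 3 days), 1, 3, 3 (U-bottom) and 11, 4 (extract, 1 and 3 days). Later days against 1 day gave 1 and 9 (extract, 3 and 7 days), 1 (U-bottom, 7 days), 2 (U-bottom, experiment 3) and 2 (gel, 3 days), and the combined contrast with extract gave 6. Between cultures there were 4, 3 and 4 (extract), 1 and 2 (U-bottom against flat, 1 and 7 days), 4 and 3 (gel against U-bottom) and 4 (AggreWell).

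Fits of only the compared groups gave 7, 7, 8 (flat), 8, 6, 7 (U-bottom) and 13, 10 (extract, 1 and 3 days) against uncultured cells in experiment 5, and 9, 7 and 10 (flat and HFF1 at 3 days, MEF at 1 day) in experiment 4. They gave 1 and 0 (U-bottom and extract, 7 days against 1 day), 1 (gel, 3 days), 8 and 2 (combined contrast, extract and HFF1), 4 and 1 (extract against plain, 1 and 7 days) and 1 (gel against U-bottom, 1 day). RLE scaling gave 1, 3, 3 and 1 (flat 1 and 3 days, MEF 1 and 3 days) and 1 (extract against plain, 7 days), and leaving out the 4 most abundant identifiers gave 1 (flat, 1 day, experiment 4).

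Same-numbered libraries did not deviate together in experiments 2 to 5 (median correlation -0.25, -0.037, 8.35e-05 and 0.0063), so the numbers gave no sign of pairing there. In experiment 1 the median over 3 same-numbered pairs was 0.333 (range 0.00279 to 0.627), against -0.212 for different numbers. A pairing in experiment 1 could thus not be excluded, and its main test treated the libraries as unpaired. With a replicate block the counts were 0 for AggreWell, 2 for flat at 1 day in experiment 4, 2 for flat at 3 days and 2 for U-bottom at 7 days in experiment 5, and 0 for the combined contrast on HFF1.

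Leaving out 1 library at a time gave, against uncultured cells in experiment 5, 0 to 1 and 1 to 4 (flat, 3 and 7 days), 0 to 1 (U-bottom, 3 days), and 1 to 2 and 4 to 7 (extract, 3 and 7 days). In experiment 4 it gave 0 to 2 and 0 to 3 (flat, 1 and 3 days), 1 to 5 (HFF1, 1 day), and 0 to 2 and 1 to 4 (MEF, 1 and 3 days). It gave 3 to 6 (extract, 7 days against 1 day), 0 to 3 and 0 to 0 (combined contrast, extract and HFF1), 0 to 2, 0 to 0 and 1 to 2 (extract against plain), 0 to 3 higher and 0 to 4 lower (U-bottom, 3 days against 1 day, experiment 3), 0 to 2 (gel against U-bottom, 3 days) and 0 to 3 (AggreWell).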
